A study of Mus musculus with 6 samples.

Results

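The genes described here encode 8 enzymes that turn lanosterol, the first sterol ring compound of cholesterol synthesis, into cholesterol: Cyp51, Tm7sf2, Msmo1, Nsdhl, Hsd17b7, Ebp, Sc5d and Dhcr7. They were chosen by name, in pathway order, and a probe was assigned to one of them through its RefSeq accession. All 8 had at least 1 probe well above background on at least 3 arrays, among 14807 genes with such a probe, of which 14806 could be tested. The samples were total RNA of liver from male ICR mice, an outbred stock, of 18 to 22 g at the start, with 24 animals in groups of 12. Control mice received saline by stomach tube and DECB mice received deproteinized extract of calf blood by the same route, each at 0.08 mL per 20 g of body weight daily for 35 days; no genetic change is given for either group, nor an age. The sample descriptions instead give 1 day for control and 30 days for DECB, a conflict that the labels do not settle. There were 3 control arrays (control 1, 2 and 3) and 3 DECB arrays (DECB 4, 5 and 6), each read in the Cy3 channel alone. The labels do not say which mouse or pool each array came from; p-values therefore cover only the spread among these 6 samples, and that spread may be technical.

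Cholesterol synthesis runs on the membranes of the endoplasmic reticulum, and the liver is a main site of it. After lanosterol, methyl groups are removed from the sterol ring, double bonds are moved or reduced, and the last steps give cholesterol. Most genes of the pathway are targets of SREBP2, a membrane-bound transcription factor that is cut and released to the nucleus when sterols are scarce; Insig proteins hold it back together with its escort Scap.

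The arrays fell into 3 groups by the scan record in the file headers. These groups are called slides here, although the record identifies a scan and names no slide. Control 1 and DECB 6 were on slide 1, controls 2 and 3 and DECB 4 on slide 2, and DECB 5 alone on slide 3. Slide 1 was dimmer, with a 75th percentile of processed signal of 78.83 and 84.75 against 421.8 to 550.9 on the other arrays, and 14925 and 16352 probes well above background against 24132 to 29517. Controls 2 and 3 were the closest pair (Pearson's r = 0.992 across genes, which are not independent replicates; 0.901 to 0.968 for other pairs). They cannot be told from 1 sample on 2 arrays, so n = 3 counts arrays of the control group. Of the hepatocyte markers 8 of 8 were measured, with 0 past the test and a summed level of 2237.6 to 2652.5 times the 75th percentile in control and 2039.3 to 2523.9 in DECB. Of 4 fat cell markers (Adipoq, Plin1, Lep and Cfd), 0 had a probe that passed the filter. Erythroid markers, 3 of 5 measured, had a summed level of 23.5 to 35.9 in control and 10.8 to 21.8 in DECB. The 3 did not move together: Hba-a1 differed by -1.73, while Alas2 differed by 0.88 and Slc4a1 by -0.13, both with overlapping groups. Bile duct markers, 4 of 6 measured, had 1.21 to 7.44 in control and 2.37 to 32.1 in DECB. The highest sum was mostly Cftr on DECB 5 (log2 level 4.96), a gene whose groups overlapped. All 4 lay above 0, as 47.5% of all genes did: Cftr by 1.25, Sox9 by 0.996, Krt19 by 0.76 and Spp1 by 0.68. Sox9 and Spp1 overlapped between groups too. Krt19 read higher on all DECB arrays but was well above background on only 2 of 3 arrays in each group. No measured marker of the 8 lists passed the test, and the part of these levels in the results below was not tested. In such whole-tissue samples, fewer cells of a type and less RNA per cell cannot be told apart.

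The region before the transcription start is shown for 4 of the enzymes because their arrays differed in different ways. Cyp51 and Msmo1 lay higher on the DECB arrays, Tm7sf2 lay lower, and Ebp overlapped between groups. Each sequence is the 250 bases before an annotated start, from the RefSeq promoter table of GRCm38.p6, written 5′ to 3′ on the gene's strand. Capitals mark CCAAT, the box bound by NF-Y, and GGGCGG, the box bound by Sp1, on either strand (ATTGG and CCGCCC when the box is on the other strand).
Cyp51, chr5:4104698-4104947, minus strand: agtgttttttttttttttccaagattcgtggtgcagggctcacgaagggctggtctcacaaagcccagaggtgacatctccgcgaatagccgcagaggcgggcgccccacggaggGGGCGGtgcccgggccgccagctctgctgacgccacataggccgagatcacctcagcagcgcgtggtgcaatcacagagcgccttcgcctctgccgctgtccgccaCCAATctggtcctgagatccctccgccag
Tm7sf2, chr19:6067851-6068100, minus strand: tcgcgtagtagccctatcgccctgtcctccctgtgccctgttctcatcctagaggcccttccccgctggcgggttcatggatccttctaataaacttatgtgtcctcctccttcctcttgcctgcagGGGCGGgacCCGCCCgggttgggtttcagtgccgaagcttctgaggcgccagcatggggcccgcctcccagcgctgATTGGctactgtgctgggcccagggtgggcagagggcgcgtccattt
Msmo1, chr8:64733579-64733828, minus strand: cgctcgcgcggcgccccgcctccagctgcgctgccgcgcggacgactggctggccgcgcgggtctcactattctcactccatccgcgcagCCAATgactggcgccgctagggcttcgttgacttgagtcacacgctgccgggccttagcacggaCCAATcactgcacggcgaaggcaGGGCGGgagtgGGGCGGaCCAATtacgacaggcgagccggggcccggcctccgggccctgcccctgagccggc
Ebp, chrX:8193513-8193762, minus strand: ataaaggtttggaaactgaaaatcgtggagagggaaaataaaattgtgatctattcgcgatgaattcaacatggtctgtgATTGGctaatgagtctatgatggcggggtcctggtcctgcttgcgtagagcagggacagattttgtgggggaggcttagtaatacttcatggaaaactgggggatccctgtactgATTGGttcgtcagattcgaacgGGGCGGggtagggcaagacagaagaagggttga
The 8 genes had 10 such windows, 3 of them of Dhcr7. CCAAT was present in 8 windows (80.0%), at least 1 for each gene, against 33.8% of all 32851 windows in the table. GGGCGG was present in 9 windows (90.0%), again for each gene, against 32.7% of all windows. Tm7sf2 therefore held the same 2 boxes as the enzymes that lay higher on the DECB arrays. The SREBP letters TCACNCCAC were in 0 of the 10 windows and 1.05% of all windows. The looser TCANNCCAC, which includes the first, was in 0 and 3.52%. Among 8 windows of 7 enzymes from HMG-CoA to lanosterol, each pattern was found in 1 (12.5%). These letters left most windows of that list unmatched too, so their absence does not show that an SREBP site is absent. GC content was 44.8% to 72.0% in these windows, with a median of 52.4% over all windows. A match is a description of letters, not a site that was shown to be bound.

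The DECB arrays were compared with the control arrays to ask how each step after lanosterol differed after DECB. For Cyp51, Msmo1, Nsdhl and Hsd17b7, 4 of the 8 enzymes, all 3 DECB arrays lay above all 3 control arrays, a pattern that 7.24% of 14749 genes showed. The values of Dhcr7 had the same order, but its probe was not well above background on control 1, and its order against that array is not measured; the share over all genes counts such probes too. Tm7sf2 had all 3 DECB arrays below all 3 control arrays, as 9.4% of genes did; 16.6% of genes had one or the other. Ebp and Sc5d overlapped between the groups. None of the 8 passed limma's Benjamini-Hochberg adjusted p of 0.05 over all genes, against 0.466% of all genes (0.209% higher and 0.257% lower); at an unadjusted p under 0.05 there were 5 of 8 (4 higher, 1 lower), against 10% of all genes. With slide as a block in the fit, Cyp51 and Msmo1 passed, 2 of 8, where 2.73% of 14749 genes were called higher, 3.92% lower and 6.65% either way. In that fit DECB 5 adds nothing to the contrast and 2 residual degrees of freedom remain, which include the gap between controls 2 and 3. With these 2 controls averaged to 1 sample and slide as a block, an alternative chosen after seeing the data, 0 of the 8 and 0 of all genes passed in limma (2558 genes at an unadjusted p under 0.05). The differences were then 2.02 for Cyp51 (adjusted p = 0.0798) and 2.72 for Msmo1 (adjusted p = 0.0762). The median difference of the 8, DECB minus control, was 0.68 (log2), beside -0.027 over all genes, and 6 of the 8 lay above 0, as 47.5% of all genes did.

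**Figure D1:**
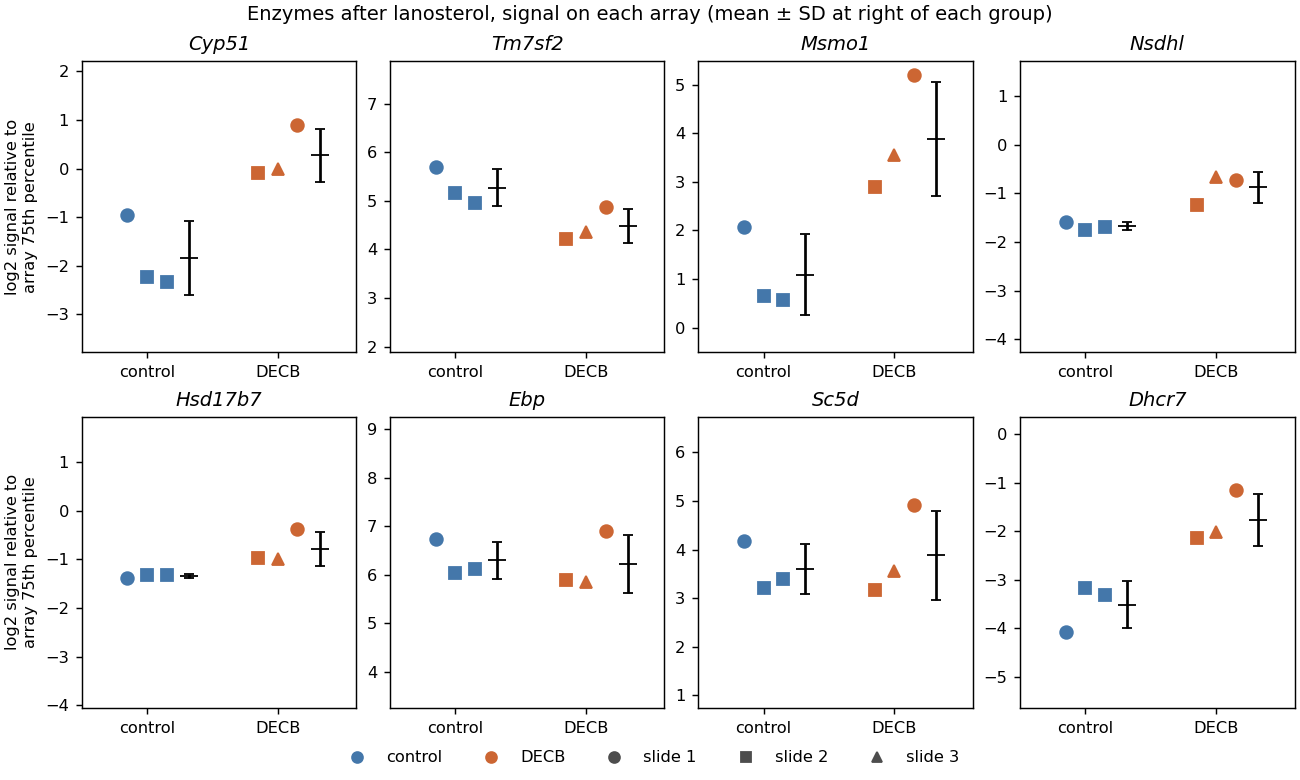
Signal of each enzyme on each array (y axis, log2 of the processed signal over the 75th percentile of its array) for control and DECB arrays, with marker shape giving the slide and bars the mean ± SD of 3 arrays; each panel spans the same number of log2 units. The DECB arrays sit above the control arrays for Cyp51, Msmo1, Nsdhl and Hsd17b7, and above controls 2 and 3 for Dhcr7, whose control 1 point is not well above background. They sit below the control arrays for Tm7sf2, and among them for Ebp and Sc5d.

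Cyp51, the cytochrome P450 that takes the first methyl group off lanosterol, read -0.96, -2.24 and -2.33 on controls 1, 2 and 3 and -0.082, 0.00058 and 0.89 on DECB 4, 5 and 6 (log2 of the signal over the 75th percentile of its array, the scale of all levels below). The groups did not overlap, and the array nearest to the other group was control 1 of the dim slide. The means were -1.84 ± 0.77 and 0.27 ± 0.54 (SD, n = 3), a difference of 2.11 (SE 0.48, 95% interval 0.99 to 3.23, 4.32-fold; limma adjusted p = 0.141). With slide as a block the difference was 2.05 (SE 0.17) and passed (adjusted p = 0.0178). Without slide 1 it was 2.25 and passed (limma adjusted p = 0.0455), where 32 of 14752 genes were called higher and 46 lower. That fit sets controls 2 and 3, which cannot be told from 1 sample, against DECB 4 and 5. With normexp background correction, whose offset shrinks differences of dim probes, the difference was 1.39. A larger increase was found for 85 of the 14806 genes.

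Msmo1 oxidises the methyl groups that remain after Cyp51 and Tm7sf2 have acted. It had the largest difference of the 8 enzymes. Its levels were 2.06, 0.64 and 0.57 on controls 1, 2 and 3 and 2.90, 3.55 and 5.19 on DECB 4, 5 and 6, with no overlap. Control 1 and DECB 6, both of slide 1, were the highest of their groups. The difference was 2.79 (SE 0.68, 95% interval 1.20 to 4.39, 6.93-fold; limma adjusted p = 0.167). With slide as a block it was 2.66 (SE 0.24; adjusted p = 0.0188), the second of the 8 enzymes past the threshold in that fit. A larger increase was found for 32 genes.

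Tm7sf2 is a sterol reductase that removes the double bond left by Cyp51, a step that the related protein Lbr can also carry out. At its brighter probe it read 5.71, 5.16 and 4.96 on controls 1, 2 and 3 and 4.22, 4.37 and 4.87 on DECB 4, 5 and 6. All DECB arrays were lower, with DECB 6 close to control 3. The difference was -0.79 (SE 0.33, 95% interval -1.58 to -0.00095; limma adjusted p = 0.499), and -0.84 in the fit with slides blocked (adjusted p = 0.0522). A second probe for the same RefSeq accession read 2.26, 2.29 and 2.17 on controls 1, 2 and 3 and 1.69, 1.49 and 1.45 on DECB 4, 5 and 6, a difference of -0.70 (SE 0.26). Both probes thus had the DECB arrays below the control arrays, and the difference stayed below 0 in all 19 alternatives, one of which averages the probes, from -0.98 to -0.57. Lbr had a difference of 0.61 (SE 0.30, limma adjusted p = 0.594) at its brighter probe. There all DECB arrays lay above the control arrays, as for 7.24% of genes, but narrowly: DECB 5 read -0.70 and control 1 read -0.72. Its other probe differed by 1.09 (SE 0.42) and was not well above background on control 1 or DECB 6.

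Nsdhl and Hsd17b7 act in turn on the oxidised methyl groups: the first removes the carbon and the other reduces the ketone that results. Nsdhl read -1.59, -1.75 and -1.69 on controls 1, 2 and 3 and -1.25, -0.66 and -0.72 on DECB 4, 5 and 6. The controls lay within a narrow range and all DECB arrays lay above it, by a mean of 0.80 (SE 0.29, 95% interval 0.12 to 1.48; limma adjusted p = 0.4). Its other probe, which was not well above background on control 1, differed by 0.88 (SE 0.28). Hsd17b7 read -1.39, -1.31 and -1.32 on controls 1, 2 and 3 and -0.97, -1.0005 and -0.38 on DECB 4, 5 and 6. The difference was 0.56 (SE 0.29, 95% interval -0.13 to 1.25; limma adjusted p = 0.625) and was 0.25 with normexp. Its other probe differed by 0.87 (SE 0.45), and there the groups overlapped, since control 1 read -1.11 and DECB 4 read -1.35.

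Ebp moves a double bond within the sterol ring. It read 6.73, 6.03 and 6.12 on controls 1, 2 and 3 and 5.90, 5.84 and 6.90 on DECB 4, 5 and 6. DECB 6 was the highest of the 6 arrays and the other DECB arrays the lowest. The difference was -0.081 (SE 0.39, 95% interval -1.01 to 0.85; limma adjusted p = 1.00), so that increases up to 0.85 and decreases up to 1.01 (log2) are within the interval. Sc5d adds the double bond that gives the direct precursors of the last step. It read 4.17, 3.20 and 3.40 on controls 1, 2 and 3 and 3.16, 3.56 and 4.91 on DECB 4, 5 and 6, with a difference of 0.29 (SE 0.52, 95% interval -0.94 to 1.51; limma adjusted p = 0.994). That sign rested on DECB 6, without which the difference was -0.23.

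Dhcr7 reduces the last double bond in one of the branches that end in cholesterol. Its probe was close to background: it was well above it on 2 of 3 control arrays and on 3 DECB arrays. It read -3.17 and -3.32 on controls 2 and 3, -4.07 on control 1, where it was not well above background, and -2.15, -2.01 and -1.15 on DECB 4, 5 and 6. The difference was 1.75 (SE 0.40, 95% interval 0.80 to 2.69; limma adjusted p = 0.146), and 1.88 in the fit with slides blocked (adjusted p = 0.0747). On control 1 the lowest signal called well above background was -1.95, which is above the levels of DECB 4 and 5, so the order of those arrays is not measured. With control 1 set to -1.95 the difference was 1.04, and with normexp it was 0.62.

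**Figure D2:**
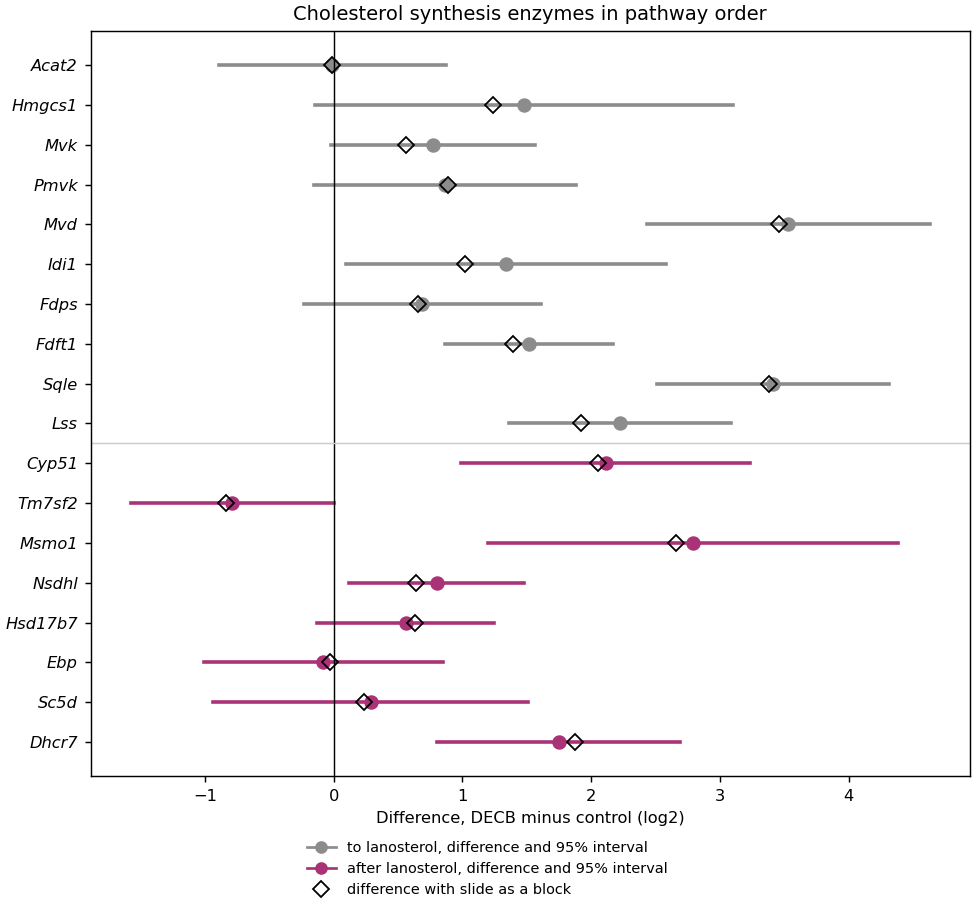
Difference between DECB and control (x axis, log2) for enzymes of cholesterol synthesis in pathway order (y axis), with limma's 95% interval; open diamonds give the difference with slide as a block. Of the enzymes shown before lanosterol, all but Acat2 lie above 0, and after it Tm7sf2 is the enzyme farthest below 0, with Ebp near 0.

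The signal of Tm7sf2 and that of the other enzymes can be compared on the same array, so that a scaling factor of an array cancels. Tm7sf2 was taken as the reference after its lower DECB values were seen, so this is a description with no test. The log2 signal minus that of Tm7sf2 was higher on all 3 DECB arrays than on all 3 control arrays for 7 of the other 7 enzymes, and for 42.1% of 14748 genes. The levels of different probes are not comparable, so only the change of this quantity between groups is given. It was 3.58 for Msmo1, 2.90 for Cyp51, 2.54 for Dhcr7 (1.83 with control 1 at its lowest signal well above background), 1.59 for Nsdhl, 1.35 for Hsd17b7, 1.08 for Sc5d and 0.71 for Ebp. For Cyp51 the quantity read -6.66, -7.40 and -7.29 on controls 1, 2 and 3 and -4.30, -4.37 and -3.98 on DECB 4, 5 and 6. The gap between control 1 and the other controls was smaller there than in the Cyp51 level itself (SD of 0.40 and 0.77 over the controls). That SD was also smaller for Msmo1, Ebp and Sc5d. It was larger for Nsdhl (0.32 and 0.084), Hsd17b7 (0.42 and 0.040) and Dhcr7 (0.85 and 0.48, with control 1 not well above background). Taking Tm7sf2 as the reference thus did not narrow the controls for every enzyme.

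**Figure D3:**
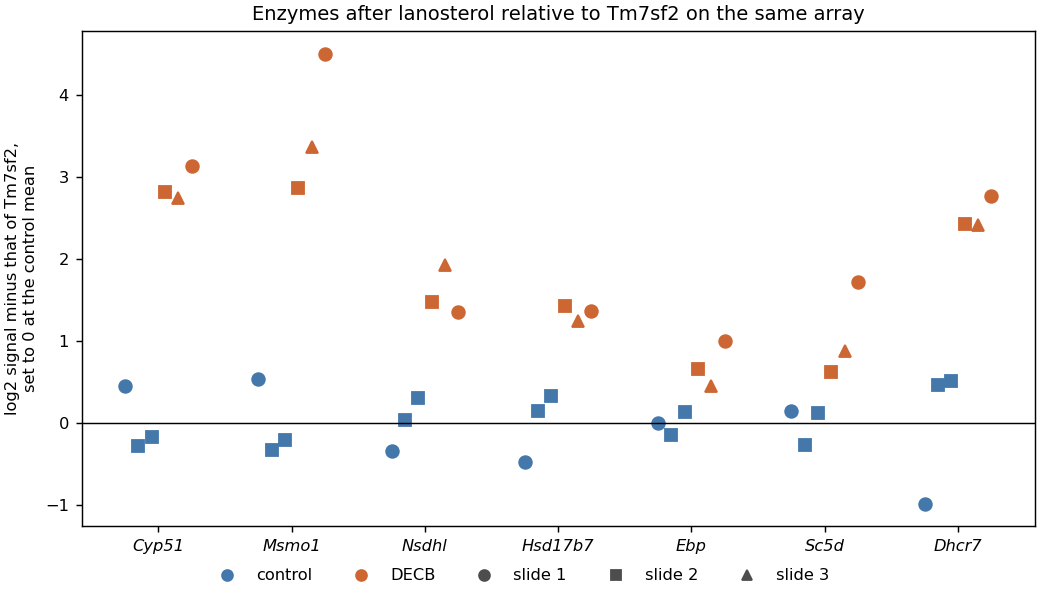
Log2 signal of each enzyme minus that of Tm7sf2 on the same array (y axis), set to 0 at the mean of the 3 control arrays, for 7 enzymes (x axis); colour gives the group and marker shape the slide. All DECB points of an enzyme lie above its control points.

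Slide 1 stood apart for most of these genes. Control 1 was the highest control for 6 of the 8 enzymes and DECB 6 the highest DECB array for 7 of the 8, the exception being Nsdhl. The share of all genes with this order was not counted, so it is not shown to be particular to these enzymes. Of the hepatocyte markers, Tat also had control 1 and DECB 6 as the highest of their groups, while Alb had them as the lowest. Because slide 1 stood apart, the differences were also taken within slides, as values with no test. Within slide 1 (DECB 6 minus control 1) they were 1.85 for Cyp51, 3.13 for Msmo1, 2.92 for Dhcr7, 0.87 for Nsdhl, 1.01 for Hsd17b7 and -0.83 for Tm7sf2. For Dhcr7 the slide 1 value is 0.80 with control 1 set to the lowest signal well above background. Within slide 2 (DECB 4 minus the mean of controls 2 and 3) they were 2.20, 2.298, 1.095, 0.47, 0.35 and -0.84 for the same genes. Sc5d had 0.74 within slide 1 and -0.14 within slide 2, and Ebp 0.17 and -0.18. The median of the 8 was 0.94 within slide 1 and 0.41 within slide 2, beside -0.051 and -0.060 over all genes. At the brighter probe of each gene, Tm7sf2 differed by nearly the same amount on both slides, and Hsd17b7 by more on slide 1. For Dhcr7 the slide with the larger difference depends on the level given to control 1.

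**Figure D4:**
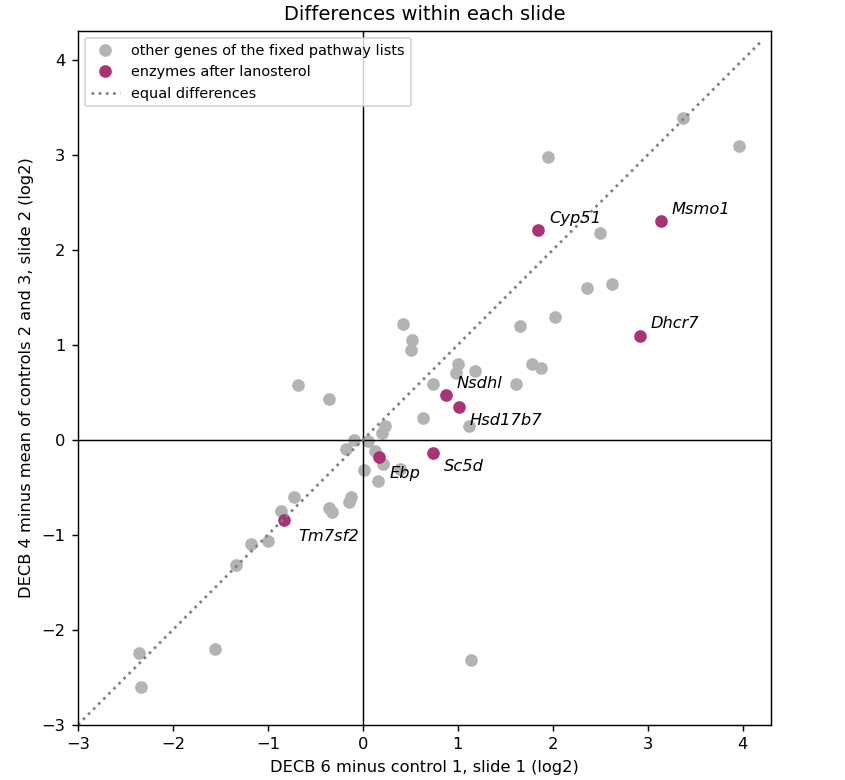
Difference within slide 1 (x axis, DECB 6 minus control 1, log2) against difference within slide 2 (y axis, DECB 4 minus the mean of controls 2 and 3, log2) for the 8 enzymes (named) and for the other measured genes of the pathway lists (grey); the dotted line marks equal differences. Cyp51, Msmo1, Nsdhl, Hsd17b7 and Dhcr7 lie above 0 on both axes and Tm7sf2 below 0 on both; the slide 1 value of Dhcr7 uses a control 1 signal that was not well above background.

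Of the 11 enzymes from HMG-CoA to lanosterol, all measured, 2 rose, 0 fell and 9 did not pass (limma, Benjamini-Hochberg adjusted p under 0.05 over all genes; 0.466% of all genes were called). The 2 were Mvd, which makes isopentenyl diphosphate, with a difference of 3.53 (SE 0.46, adjusted p = 0.039; well above background on 2 of 3 controls), and Sqle, squalene epoxidase, with 3.41 (SE 0.38, adjusted p = 0.0318). Lss, whose product lanosterol is the substrate of Cyp51, read -1.95, -2.24 and -1.95 on controls 1, 2 and 3 and -0.49, 0.63 and 0.41 on DECB 4, 5 and 6, a difference of 2.23 (SE 0.36, adjusted p = 0.0679; 0.0293 in the blocked fit). Lss, like Mvd, was not well above background on control 1. The median difference of these 11 was 1.48, with 10 above 0, against 0.68 and 6 of 8 above 0 for the enzymes after lanosterol. Of all genes, 47.5% lay above 0. The lists were not tested against each other. Of the other sterol enzymes and relatives of the 8, 4 of 5 genes were measured and 0 passed; among them Erg28 differed by -0.13 and Ebpl, a relative of Ebp, by -0.095.

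Electron supply for Cyp51, Msmo1 and Sc5d runs through Por, cytochrome b5 and its reductase. Of 7 genes of this list, 0 passed, 6 lay below 0 and 1 lay above it, where 47.5% of all genes lay above 0. Por, the reductase that feeds the P450 enzymes, read 7.28, 7.71 and 7.44 on controls 1, 2 and 3 and 5.37, 5.99 and 5.71 on DECB 4, 5 and 6. All DECB arrays were lower, by a mean of 1.78 (a difference of -1.78, SE 0.30, adjusted p = 0.068), and Por passed with slide as a block (-1.93, adjusted p = 0.0255). Cyb5a differed by -0.43, Cyb5r3 by -0.54, Cyb5b by 0.41 and Pgrmc1, a partner of Cyp51, by -0.21 (adjusted p from 0.64 to 1.00).

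Of 7 genes of SREBP control, 6 were measured and 0 passed; with slide as a block 2 rose and 2 fell among them, where 6.65% of all genes were called. In 5 of the 6 the groups did not overlap, against 16.6% of all genes. The sixth, Srebf2, was not well above background on control 1, so its order is not measured. Insig1, itself an SREBP target, differed by 2.21 (SE 0.47, adjusted p = 0.116; blocked, 0.0265). Insig2 differed by -1.26 (adjusted p = 0.129; blocked, 0.0316), Scap by -1.38 (adjusted p = 0.169; blocked, 0.0255) and Srebf2 by 1.25 (adjusted p = 0.481). Of 5 genes of sterol uptake and transfer, all measured, 0 passed, and with slide as a block 1 rose. Of 14 genes of cholesterol use and export, 12 were measured, 0 rose and 2 fell. Abcg5, which exports sterols into bile with its partner, fell by 2.45 (log2; SE 0.29, adjusted p = 0.0343), and Cyp8b1, of bile acid synthesis, fell by 2.51 (log2; SE 0.37, adjusted p = 0.0492). Without slide 1 Cyp8b1 did not pass (adjusted p = 0.0549). Mvd and Cyp8b1 also lost their calls with normexp (adjusted p = 0.118 for both) and with quantile normalization (0.0532 and 0.0678). The calls of Mvd, Sqle, Abcg5 and Cyp8b1 were lost when control 1, control 2, control 3, DECB 4 or DECB 5 was left out, or when controls 2 and 3 were averaged; in those fits at most 2 genes of all passed (853 to 1343 genes at an unadjusted p under 0.05).

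The 5 genes outside these lists whose array pattern was nearest to the median pattern of the 8 enzymes were Zfp275, Nr2c2ap, Ssxb9, Nhej1 and Mettl1. Their mean distance from it over the 6 arrays was 0.063 to 0.081 (log2), against 0.14 for Nsdhl, the nearest of the enzymes, and 0.99 for Msmo1, the farthest. The 5 were picked as the nearest of all genes outside the lists, so small distances follow from that choice and are no result about these genes. Ssxb9 was well above background on 3 of the 6 arrays, and neither it nor Zfp275 was on control 1, so their distances rest in part on unmeasured levels.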

How the data were processed

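The deposited files hold scanner data of Agilent arrays read in 1 colour; the software was Agilent Feature Extraction, version 11.0.1.1, per the file headers and the submitters' processing notes. The intensity used, the processed signal, was background-subtracted and detrended within each array, per the file headers, and not normalized between arrays. The series' value table holds log2 values deposited by the authors, with scale, centring and direction unstated. Its columns share a median of 5.35 over these probes and correlated with their own array at 0.672 to 0.694, so it was used in no comparison.

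For each array, the 75th percentile over its 43020 spots that are not controls was subtracted from the log2 signal. Outlier spots were left out, none of them of the 8 enzymes. A probe was kept where 3 or more of the 6 arrays had it well above background (25423 of 39429), and named through RefSeq accessions (27234 probes matched, GRCm38.p6), with the brightest probe for each gene. Tests used limma 3.58.1 in R 4.3.3, two-sided, adjusted over all 14806 genes tested. The fit was checked on simulated independent arrays with large added differences. Those had no slide effect, dim arrays or near-identical controls, so that check does not cover these features of the data. Slide as a block used the 14749 genes with all arrays. Groups came from the titles. The 8 enzymes and the lists were chosen with earlier results of these data known. Named genes were the 8 enzymes, every list gene past the threshold, the pathway neighbours, relatives, regulators and electron donors given by name, and up to 2 genes of the smallest p in other lists; some list genes are counted but not reported by name here. Alternatives were another background correction, scalings, filters, probe rules, variance model, slide and left-out arrays. Array number and the dim slide limit precision.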

Additional observations from a re-analysis of the deposited data

How the results depend on the processing

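Cyp51, Msmo1, Nsdhl, Hsd17b7 and Dhcr7 kept a positive difference, and Tm7sf2 a negative one, in every alternative that gave them a value. Dhcr7 has no value with only probes above background on all 6 arrays. The median of the 8 enzymes stayed positive, from 0.40 with normexp to 0.94 within slide 1, and from 0.54 to 0.82 with 1 array left out. The number of the 8 called higher was 0, but 2 with slide as a block and 1 without slide 1. Without slide 1, 32 of 14752 genes were called higher and 46 lower. Only controls 2 and 3, which cannot be told from 1 sample, and DECB 4 and 5 remain in that fit. The number called lower was 0, and 0 were called either way with 1 array left out. Ebp changed sign with normexp (0.082), with quantile normalization (0.11), and without control 1 (0.14), DECB 4 (0.077) or DECB 5 (0.10), and Sc5d without DECB 6 (-0.23). In the untested values within slides, Ebp changed sign on slide 1 (0.17) and Sc5d on slide 2 (-0.14). Their ranges with 1 array left out were -0.43 to 0.14 and -0.23 to 0.64. Pgrmc1 changed sign with quantile normalization (0.012) and without control 1 (0.15) or DECB 5 (0.042). Erg28 did so without control 1 (0.12) or DECB 4 (0.14) and, untested, within slide 1 (0.16). Ebpl did so without control 1 (0.32), DECB 4 (0.12) or DECB 5 (0.21), with slide as a block and controls 2 and 3 averaged (0.0052), and, untested, within slide 1 (0.13). With 1 array left out the ranges were -0.58 to 0.15 for Pgrmc1, -0.52 to 0.14 for Erg28 and -0.62 to 0.32 for Ebpl.

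Over all genes, 31 were called higher and 38 lower. The counts were 16 and 23 with quantile normalization, 55 higher with centring on probes above background on all arrays, 403 and 578 with slide as a block, 0 and 2 with controls 2 and 3 averaged, 0 and 0 with these averaged and slide as a block (limma; 2558 genes at an unadjusted p under 0.05; chosen after seeing the data), and 0 and 0 with no filter (limma; 1257 genes at an unadjusted p under 0.05). With 1 array left out they ran from 0 to 18 higher and 0 to 35 lower. In the pathway lists 2 higher and 2 lower genes were called. This became 1 and 1 with normexp or quantile normalization, 4 higher with the other centring, 0 and 0 with no filter or with controls 2 and 3 averaged (with and without slide as a block), 8 and 6 with slide as a block, 1 lower without slide 1, and 0 to 2 in each direction with 1 array left out. The cause was not tested. No paired analysis was possible because control and DECB titles use different numbers, and the number in the source names is the same for all samples. The arrays of slide 1 lay 3.75 and 4.04 times above local background at the 75th percentile, against 24.997 to 30.6 times on the others, which limits the dim probes of Dhcr7, Lss and Mvd on control 1.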
